A study of Homo sapiens with 6 samples.

Results

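The MYC, MAX and MXD network was followed here through 10 genes, taken by symbol: MYC, MYCN, MYCL, MAX, MXD1, MXD3, MXD4, MXI1, MNT and MLX. All 10 were found among the 62700 gene rows, and all 10 passed the filter on low values that left 14292 genes for testing. The study measured polyadenylated RNA in TCam-2 cells, a long-established human line from a testicular seminoma, in 3 groups of 2 libraries. WT cells were not transduced, GFP cells overexpressed FLAG-tagged GFP, and RBMXL3 cells overexpressed FLAG-tagged RBMXL3, an RNA-binding protein related to RBMX. The GFP and WT groups served as negative controls for genes that differ in expression or splicing when RBMXL3 is overexpressed. The promoter of the transgenes, the time since transduction, and whether the transduced cells were pools or clones are not given in the sources used here. Nothing in the labels says that the libraries of a group came from separate cultures, so p-values measure the spread between these libraries, which may be technical.

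MYC, MYCN and MYCL are transcription factors that bind DNA as dimers with MAX, mostly at E-boxes with the core CACGTG, and activate genes of growth, ribosome assembly and metabolism. The MXD proteins (MXD1, MXI1, MXD3 and MXD4) and MNT compete for MAX, bind the same sites and recruit the SIN3 and histone deacetylase corepressors. MLX is a MAX-like protein that pairs with some MXD proteins, with MNT and with the glucose-sensing factors MondoA (MLXIP) and ChREBP (MLXIPL). RNA levels do not show which dimers form.

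The libraries held 28604436 to 29318007 recovered reads in WT, 23080795 to 26776703 in GFP and 17685680 to 21023355 in RBMXL3. RBMXL3 itself had 0 reads in all 4 control libraries, which bounds it at 3 reads each, and 84 and 68 reads in the RBMXL3 libraries. All 11 seminoma markers were detected, with a summed level of 121407 to 138539 normalised reads in WT, 120714 to 132085 in GFP and 124861 to 125834 in RBMXL3. Of 10 markers of other cell types, CD3E was at 0 in every library, and 5 were too low to test. Together the 10 summed to 17002 to 20172 normalised reads in WT, 15060 to 19368 in GFP and 16885 to 16935 in RBMXL3, so not all were low. LUM, a fibroblast matrix gene, was at 79.6 and 65.4 normalised reads in WT cells, 131 and 179 in GFP cells, and 425 and 421 in RBMXL3 cells. It was called in all 3 comparisons, with log2 changes of 1.33 against GFP and 2.22 against WT, and the call of GFP against WT (0.88) was lost without WT replicate 1 (0.13) or WT replicate 2 (0.11). COL1A1, another fibroblast gene, was higher than WT in RBMXL3 (0.81, limma adjusted p = 0.00088) and in GFP (0.65, limma adjusted p = 0.024), the latter lost without WT replicate 1 (0.22) or WT replicate 2 (0.087). With summed TPM, LUM lost its call of GFP against WT and COL1A1 lost both of its calls, and DCN, the third fibroblast marker, stayed at or under 1.69 normalised reads. The part of these genes in the results below was not tested. Mitochondrial genes took 1.31% of reads in GFP replicate 1 and 2.02% to 3.02% elsewhere, and replicates of a gene lay a median of 0.12 apart on the log2 scale for WT, 0.18 for GFP and 0.08 for RBMXL3. The labels record neither batches nor dates, so group and preparation cannot be told apart.

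MXD3, a repressor partner of MAX, was the member that changed against both controls. It was higher in RBMXL3 cells than in GFP cells and than in WT cells. MYC was lower in both transduced groups than in WT cells and did not differ between RBMXL3 and GFP. MYCL, MXI1 and MNT were higher in RBMXL3 than in WT, and none of these 3 passed the test against GFP. MYCN, MAX, MXD1, MXD4 and MLX passed no test. A gene was called when limma's Benjamini-Hochberg adjusted p, over all 14292 genes, was under 0.05.

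Many genes were called wherever RBMXL3 was compared, so the members' counts stand beside those of all genes. Against GFP, 1 of the 10 members was called, and it was higher. Of all tested genes, 20.9% were called, 10.5% higher and 10.4% lower. Against WT, 5 of the 10 were called, 4 higher and 1 lower, where 29.9% of all genes were called, 14.6% higher and 15.3% lower. Between GFP and WT, 1 member was called lower, where 3.67% of all genes were called, 1.76% higher and 1.91% lower. Being called in the same direction against both controls held for 1 member, MXD3, and for 6.88% of all genes on the higher side and 6.86% on the lower side. With 10 members, the counts against GFP and against both controls lie near these shares or under them. They are no result about the network as a set. These comparisons share libraries: both RBMXL3 comparisons use the same RBMXL3 libraries, and both WT comparisons the same WT libraries. Levels are bulk values, so a change in the number of cells that express a gene and a change in RNA per cell cannot be told apart.

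**Figure D1:**
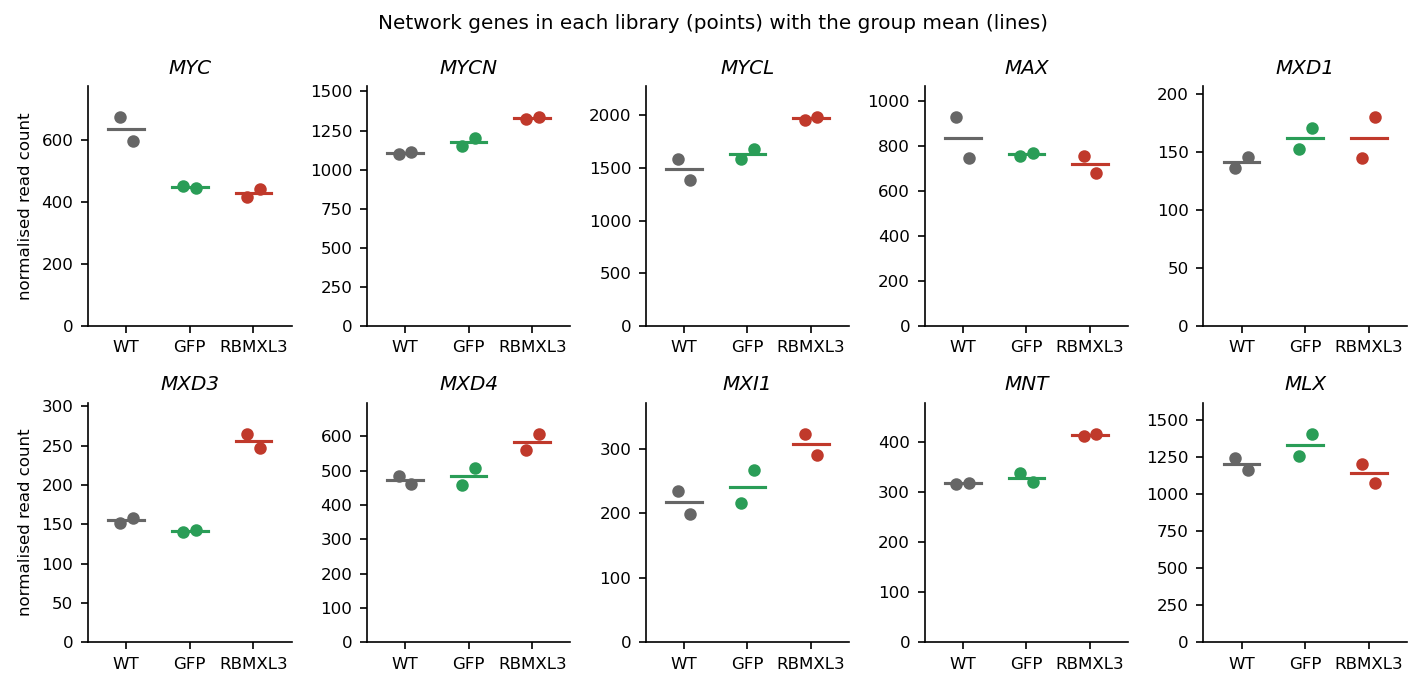
Normalised read count of each network gene (vertical axis from 0, own scale per gene) in the 2 libraries of the WT, GFP and RBMXL3 groups, with points for libraries and lines for group means. The MXD3 points of RBMXL3 lie at 265 and 247, above all 4 controls, and the MYC points of both transduced groups lie below 599, the lower of the WT points.

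The first members are the MYC genes, the activating partners of MAX. MYC (ENSG00000136997.22), the broadly expressed member that drives proliferation, had 675 and 599 normalised reads in WT cells, 452 and 447 in GFP cells, and 418 and 443 in RBMXL3 cells. All 4 transduced libraries lay below both WT libraries, an order also found in 15.9% of all tested genes. WT averaged 637 ± 53.6, GFP 449 ± 3.37 and RBMXL3 431 ± 17.2 normalised reads (mean ± SD, n = 2). The log2 change was -0.54 ± 0.12 (SE) in RBMXL3 against WT (limma adjusted p = 0.0047) and -0.48 ± 0.12 in GFP against WT (limma adjusted p = 0.043). Against GFP it was -0.06 ± 0.12 in RBMXL3 (limma adjusted p = 0.76), so the RBMXL3 and GFP levels were indistinguishable at this replicate spread. Both RBMXL3 libraries were also below all 4 controls, an order found in 23.6% of all tested genes, but only from 443 to 447 between the nearest RBMXL3 and GFP libraries.

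The MYC call against WT was lost without WT replicate 1 (adjusted p = 0.064) and without RBMXL3 replicate 1 (0.069). The call of GFP against WT was lost without WT replicate 1 (0.29), WT replicate 2 (0.11), RBMXL3 replicate 1 (0.10) or RBMXL3 replicate 2 (0.10), and its adjusted p ran from 0.020 to 0.29 over all alternatives.

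MYCN (ENSG00000134323.13; chromosome 2, 15940564 to 15947007, plus strand, GENCODE 29 on GRCh38), the form best known from neural tumours and early embryonic cells, had 1099 and 1109.9 normalised reads in WT. GFP cells had 1152 and 1205, and RBMXL3 cells 1326 and 1335. The groups were ordered WT, GFP, RBMXL3 with no overlap. The log2 difference was 0.26 ± 0.10 (SE) against WT (limma adjusted p = 0.057) and 0.17 ± 0.10 against GFP (limma adjusted p = 0.23). The first lies near the threshold: without GFP replicate 1 or without GFP replicate 2 it was called, at an adjusted p of 0.012 in each case, as it was with quantile normalisation (0.031) and edgeR on the recovered reads (0.046). Over all alternatives the adjusted p ran from 0.012 to 0.57.

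MYCL (ENSG00000116990.12; chromosome 1, 39895426 to 39902256, minus strand), first known as a small cell lung cancer gene, was higher in RBMXL3 than in WT cells. Its normalised reads were 1583 and 1387 in WT cells, 1583 and 1681 in GFP cells, and 1958 and 1979 in RBMXL3 cells. Both RBMXL3 libraries stood above all controls, while the WT and GFP libraries met at 1583. MYCL rose against WT by 0.40 ± 0.10 (log2 scale, SE; limma adjusted p = 0.011). Against GFP the log2 difference was 0.27 ± 0.10 (limma adjusted p = 0.079). The call against WT was lost without WT replicate 2 (0.094), RBMXL3 replicate 1 (0.10) or RBMXL3 replicate 2 (0.12). MYCL was called against GFP without GFP replicate 2 (0.029).

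MAX and MLX, the shared dimer partners, passed no test. MAX (ENSG00000125952.21; chromosome 14, 65006174 to 65102695, minus strand) had 929 and 748 normalised reads in WT cells, 759 and 771 in GFP cells, and 758 and 679 in RBMXL3 cells. The WT libraries lay farther apart than the group means, and the groups overlapped. The log2 differences were -0.21 ± 0.12 (SE) against WT (limma adjusted p = 0.21) and -0.09 ± 0.12 against GFP (limma adjusted p = 0.64). MLX (ENSG00000108788.12; chromosome 17, 42567068 to 42573239, plus strand) had 1244 and 1160.3 in WT cells, 1256 and 1406 in GFP cells, and 1205 and 1075 in RBMXL3 cells. Its log2 difference was -0.22 ± 0.11 against GFP (limma adjusted p = 0.17), which passed without GFP replicate 1 (-0.30, adjusted p = 0.048). MLX shares 18.1% of its exon length with PSMC3IP on the opposite strand, and whether counting used strand is not stated.

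The MXD genes and MNT encode the repressors that compete with MYC proteins for MAX. MXD3 (ENSG00000213347.11; chromosome 5, 177301461 to 177312757, minus strand), an MXD protein of cycling cells, had 152 and 159 normalised reads in WT cells, 140.5 and 143 in GFP cells, and 265 and 247 in RBMXL3 cells. The RBMXL3 libraries stood far above the 4 controls, and the spread within each group was small beside that gap. The ratio of means was 1.81 against GFP and 1.65 against WT. The log2 change was 0.76 ± 0.13 (SE) against GFP (limma adjusted p = 0.0027) and 0.64 ± 0.13 against WT (limma adjusted p = 0.0040). It differed by -0.11 ± 0.13 between GFP and WT (limma adjusted p = 0.65).

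The call of MXD3 against GFP held in all alternatives run, with adjusted p from 0.00092 to 0.041, and the call against WT was lost without RBMXL3 replicate 1 (0.059). MXD3 overlaps 2 genes: 22.5% of its exon length lies under PRELID1 on the opposite strand and 18.0% is shared with RAB24 on its own strand. PRELID1 had 6724 and 5669 normalised reads in WT cells, 6505 and 6105 in GFP cells, and 4653 and 4759 in RBMXL3 cells, so its levels ran opposite to those of MXD3. RAB24 stayed between 9.54 and 32.1 normalised reads. The part of shared reads in the MXD3 level was not tested.

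MNT (ENSG00000070444.15; chromosome 17, 2384060 to 2401118, minus strand), the most widely expressed of the MAX-binding repressors, had 316 and 319.6 normalised reads in WT cells, 339 and 320.0 in GFP cells, and 412 and 417 in RBMXL3 cells. The RBMXL3 libraries were above all controls. The log2 change was 0.36 ± 0.12 (SE) against WT (limma adjusted p = 0.036) and 0.31 ± 0.12 against GFP (limma adjusted p = 0.079). The call against WT was lost without WT replicate 1 (0.14), WT replicate 2 (0.10), RBMXL3 replicate 1 (0.19) or RBMXL3 replicate 2 (0.23). It was also lost with no filter on low values (0.063), quantile normalisation (0.065), DESeq2 on the recovered reads (0.059) and summed TPM (0.24).

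MXI1 (ENSG00000119950.21; chromosome 10, 110207605 to 110287365, plus strand), also called MXD2, had 235 and 199.7 normalised reads in WT cells, 215 and 267 in GFP cells, and 323 and 291 in RBMXL3 cells. Here too RBMXL3 stood above every control, with wider gaps between replicates than for MNT. The log2 change was 0.46 ± 0.15 (SE) against WT (limma adjusted p = 0.031) and 0.33 ± 0.15 against GFP (limma adjusted p = 0.13). The call against WT was lost without WT replicate 1 (0.071), WT replicate 2 (0.18), RBMXL3 replicate 1 (0.22) or RBMXL3 replicate 2 (0.10). It was also lost with no filter on low values (0.11), quantile normalisation (0.064) and summed TPM, where the log2 difference was 0.15 (0.81). Against GFP, MXI1 was called without GFP replicate 2 (0.036).

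MXD4 (ENSG00000123933.17; chromosome 4, 2247432 to 2262294, minus strand), an MXD protein of differentiating cells, had 485 and 462 normalised reads in WT cells, 459 and 509 in GFP cells, and 559 and 607 in RBMXL3 cells. The log2 difference was 0.29 ± 0.12 (SE) against WT (limma adjusted p = 0.079) and 0.26 ± 0.12 against GFP (limma adjusted p = 0.13). It was called against WT without GFP replicate 1 (0.028) or GFP replicate 2 (0.029), and against GFP without GFP replicate 2 (0.050). MXD1 (ENSG00000059728.11; chromosome 2, 69897688 to 69942945, plus strand), the founding MXD gene, had the lowest mean TPM of the 10 in each group. Its normalised reads were 136 and 145 in WT cells, 152 and 171 in GFP cells, and 144 and 179.6 in RBMXL3 cells, and the RBMXL3 libraries overlapped GFP. Its log2 difference was 0.17 ± 0.15 against WT (limma adjusted p = 0.41) and -0.0018 ± 0.15 against GFP (limma adjusted p = 0.99).

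In all, 6 of the 10 members (MYCN, MYCL, MXD3, MXD4, MXI1 and MNT) had both RBMXL3 libraries above all 4 controls, an order found in 22.5% of all tested genes. The median log2 difference of the 10 members was 0.21 against GFP and 0.27 against WT, beside 0.00 and -0.01 over all genes tested, and 0.07 between GFP and WT. With gene values summed from transcript TPM in place of the gene table, the median of all genes moved to 0.13 for RBMXL3 against GFP. On that scale 779 genes were called higher and 209 lower against GFP, beside 1503 and 1483 from the gene table, and 994 higher and 644 lower against WT, beside 2085 and 2186. MXD3 remained called against GFP (1.55) and MYCL was called too (0.55, limma adjusted p = 0.035), both above that shift, while MYC against GFP changed sign to 0.33 (limma adjusted p = 0.15).

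**Figure D2:**
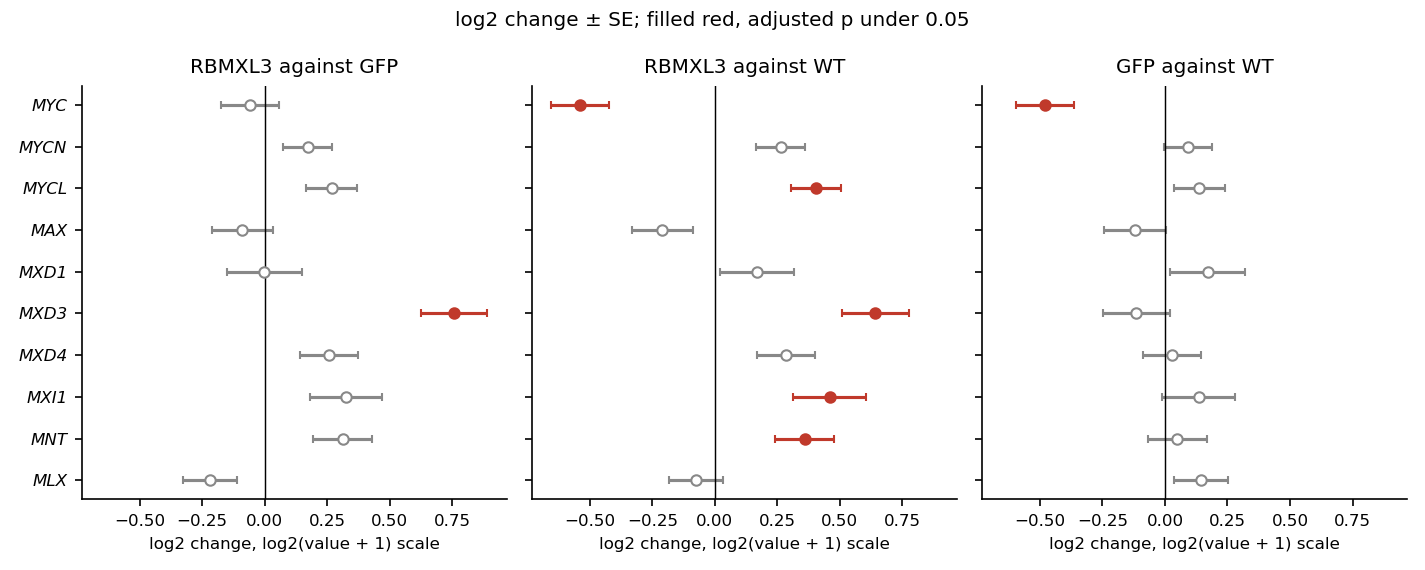
Log2 change of each network gene (horizontal axis, log2(value + 1) scale) in the 3 comparisons, as the limma estimate ± SE, with filled red points for an adjusted p under 0.05. MXD3 is filled in both RBMXL3 panels, at 0.76 and 0.64, and MYC in both WT panels, at -0.54 and -0.48.

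Levels of different genes were compared per transcript length, as TPM. In WT cells, MLX (31.9 TPM), MAX (31.5), MYCN (29.6) and MYCL (28.9) formed the top of the order, and neighbours among them overlapped between libraries. MYC followed at 15.2 TPM, apart from its neighbours, then MXD4 (8.97) and MXD3 (8.40), which overlapped, MNT (5.54), and MXI1 (2.55) with MXD1 (1.88), which overlapped again. In GFP cells MYC was at 7.37 TPM, overlapping MXD4 at 7.61. In RBMXL3 cells MYCL stood alone at the top with 42.6 TPM, above MLX (35.0) and MYCN (33.4), which overlapped. MXD3 stood there at 19.7 TPM, between MAX (24.9) and MXD4 (11.3) with no overlap with either. MYC was at 9.52 TPM, MNT at 6.97, MXI1 at 2.82 and MXD1 at 2.22, the last pair overlapping.

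Summed over genes, the 3 MYC genes gave 2.71 and 2.69 times the TPM of the 5 repressor genes (the 4 MXD genes and MNT) in WT cells, 2.65 and 3.25 in GFP cells, and 1.88 and 2.10 in RBMXL3 cells. The RBMXL3 ratios lay below those of all 4 controls. MXD3 made up 27.0% and 34.1% of the repressor TPM in WT cells, 28.9% and 25.04% in GFP cells, and 47.4% and 44.1% in RBMXL3 cells. MYC made up 22.7% and 18.7% of the TPM of the 3 MYC genes in WT, against 11.2% and 10.98% in GFP and 10.9% and 11.4% in RBMXL3. These ratios are on the TPM scale and carry no test of their own, and TPM keeps no depth. They depend on that scale: MXD3 averaged 6.08 TPM in GFP and 19.7 in RBMXL3 cells, beside 142 and 256 normalised reads. MYC averaged 7.37 and 9.52 TPM in these groups, beside 449 and 431 normalised reads.

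**Figure D3:**
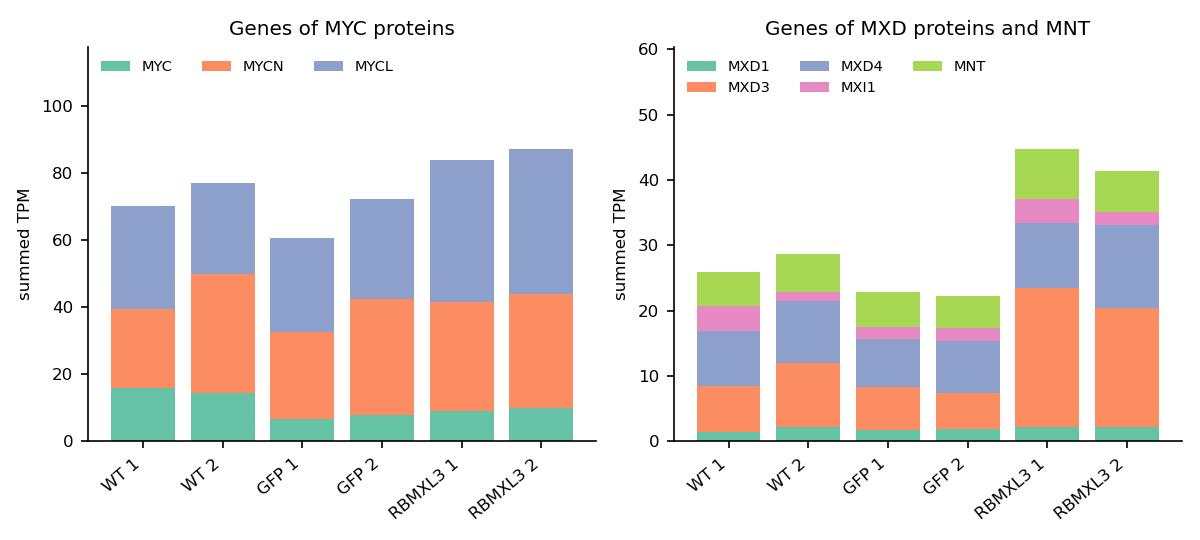
Summed TPM (vertical axes from 0) of the genes of MYC proteins, left, and of MXD proteins with MNT, right, in each of the 6 libraries, with 1 colour per gene. The MXD3 block of the RBMXL3 libraries reaches 21.2 and 18.3 TPM, against 5.57 to 9.79 TPM in the controls.

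Differential splicing was a stated aim of the study, so the transcripts of the members were examined next. Of the 10 members, 7 had at least 2 transcripts that could be tested, and MXD1, MXD4 and MXI1 did not. limma's diffSplice, which asks whether transcripts of 1 gene change unequally, called 0 of these 7 in each comparison. Of all 8882 genes tested, 12.0% were called for RBMXL3 against GFP, 12.0% for RBMXL3 against WT and 1.72% for GFP against WT. At an unadjusted Simes p under 0.05 the counts of members were 2, 1 and 2, and a limma test on transcript shares also called 0 in each comparison. The lowest adjusted p of diffSplice were 0.062 for MYCL against GFP and 0.068 for MAX against WT. Transcript shares below are of the TPM of transcripts known to GENCODE 29 and are not junction counts.

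MAX was shown at sequence level because its main forms differ by 1 small exon of known effect on the protein. The MAX-205 form holds a 27-base exon (chr14:65101546-65101572, minus strand, GRCh38) that adds 9 residues just before the DNA-binding region, giving 160 codons, and the MAX-204 form skips it, giving 151. Capitals mark the exon, with 15 bases of flanking transcript on each side, read from the GENCODE 29 transcript:
MAX with the exon: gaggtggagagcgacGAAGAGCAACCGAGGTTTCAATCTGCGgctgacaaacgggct
MAX without the exon: gaggtggagagcgacgctgacaaacgggct

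MAX-205 made up 52.0% and 59.5% of the TPM of these forms in WT cells, 75.1% and 40.1% in GFP cells, and 40.3% and 55.4% in RBMXL3 cells. For this pair of forms the GFP libraries spanned the other 4. Over all 10 transcripts that hold the exon, the share of MAX TPM was 43.4% and 43.3% in WT cells, 38.9% and 37.6% in GFP cells, and 43.4% and 52.8% in RBMXL3 cells. On that measure both GFP libraries lay below the other 4, and WT met RBMXL3 at 43.4%. These exon shares carry no test of their own. MAX-211, a form of 94 codons, took 22.7% and 14.0% of MAX TPM in WT and was listed at 0 in the other 4 libraries (diffSplice adjusted p = 0.054 for RBMXL3 against WT). MAX-218 was listed at 0 in WT and RBMXL3, and took 27.0% and 4.005% in GFP.

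MYCL-203, which codes for 394 residues, took 45.5% and 34.4% of MYCL TPM in WT cells, 20.1% and 28.6% in GFP cells, and 41.8% and 46.8% in RBMXL3 cells. MYCL-202, of 364 codons, took 37.3% and 50.6%, then 61.0% and 52.6%, then 39.2% and 37.0%. MYCL-203 was thus lowest and MYCL-202 highest in GFP, with no overlap with the other groups (MYCL-203 diffSplice adjusted p = 0.075 for RBMXL3 against GFP). MYC-202, of 439 codons, took 61.4% and 57.3% of MYC TPM in WT cells, 38.9% and 74.1% in GFP cells, and 72.3% and 82.4% in RBMXL3 cells, and MYC-205, of 453 codons, took most of the rest.

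MXD3-203 and MXD3-208 both code for 206 residues. MXD3-208 took the larger share of them in GFP replicate 1 (33.8%), and MXD3-203 in the other 5 libraries. MXD3-203 took 82.1% and 49.7% in WT cells, 29.01% and 78.9% in GFP cells, and 49.1% and 55.9% in RBMXL3 cells. In TPM it was at 5.75 and 4.87, 1.91 and 4.40, and 10.4 and 10.2, so the RBMXL3 libraries were highest for this main form too. MYCN-201 took at least 68.4% of MYCN in every library, and MNT-201 64.3% to 82.5% of MNT. MLX-203 took 50.3% to 74.0% of MLX.

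**Figure D4:**
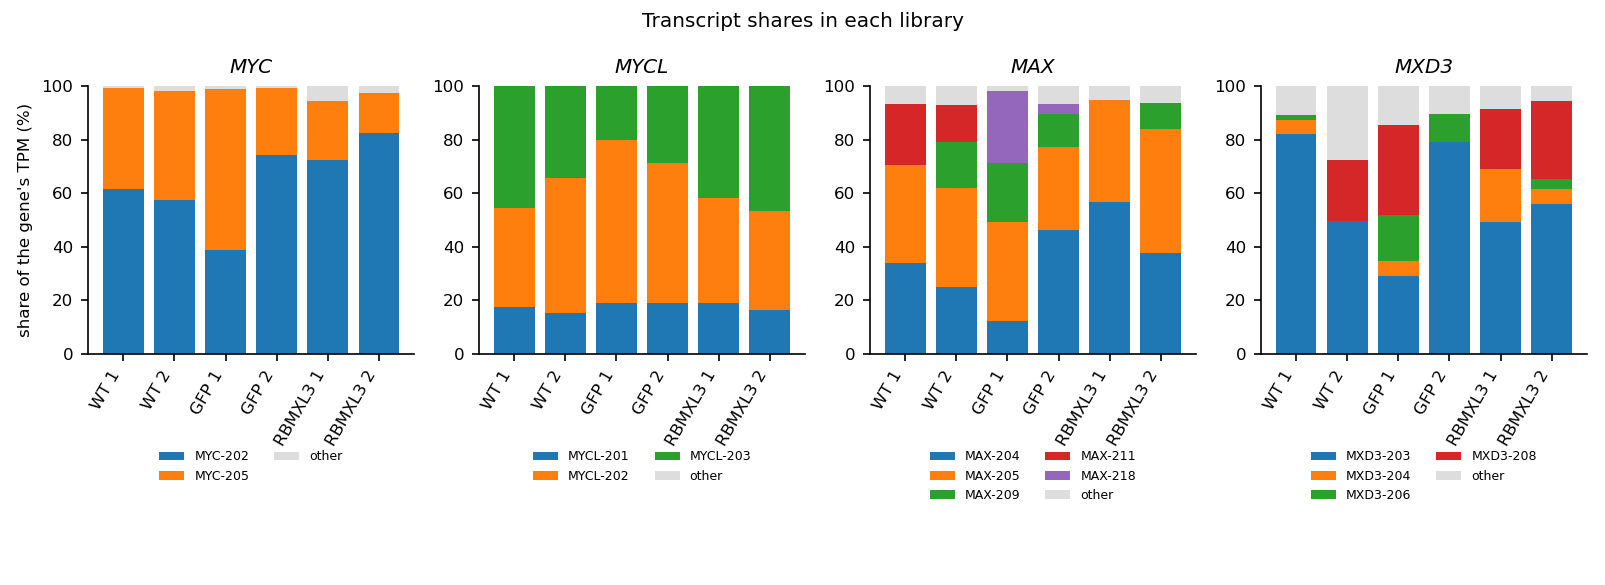
Share of the gene's TPM (vertical axis, percent) taken by the named transcripts of MYC, MYCL, MAX and MXD3 in each library, with the other transcripts in grey. MYCL-203 stands at 20.1% and 28.6% in the GFP libraries, and the MAX-211 block appears in the WT libraries, at 22.7% and 14.0%.

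Because MYC and MXD dimers bind CACGTG, the RefSeq promoter windows of the members (GRCh38.p14, 250 bases before to 50 after the start) were searched for it. CACGTG is its own reverse complement, so 1 search covers both strands. Of the 10 members, 9 had windows, 12 in all, and MYC had none, so its promoter was not searched. CACGTG occurred in the windows of 3 genes: MXD4 (238 bases before the start), MNT (193) and MLX (50). It occurred in 7.26% of all 35116 windows and for 8.77% of all 27305 genes. The stretches are printed for these 3 genes, with CACGTG in capitals and without bases of the GENCODE gene itself. MXD3, the member that changed against both controls, has no CACGTG in its window, and its upstream stretch is shown beside them with its GC box, GGGCGG, in capitals. That box was searched as GGGCGG and CCGCCC and occurred in 45.0% of all windows, and in 42.6% over their upstream part. The printed MNT stretch also holds both GGGCGG and CCGCCC, left there in lower case, so the box does not set MXD3 apart. A match is a description of these letters and not a bound site:
MXD4 chr4:2262295-2262359, minus strand: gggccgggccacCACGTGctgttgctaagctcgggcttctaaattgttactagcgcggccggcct
MNT chr17:2401188-2401310, minus strand: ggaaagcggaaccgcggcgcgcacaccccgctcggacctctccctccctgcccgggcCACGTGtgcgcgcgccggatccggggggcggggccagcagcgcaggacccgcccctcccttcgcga
MLX chr17:42566990-42567067, plus strand: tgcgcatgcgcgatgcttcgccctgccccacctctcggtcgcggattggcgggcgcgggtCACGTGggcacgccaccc
MXD3 chr5:177312758-177313002, minus strand: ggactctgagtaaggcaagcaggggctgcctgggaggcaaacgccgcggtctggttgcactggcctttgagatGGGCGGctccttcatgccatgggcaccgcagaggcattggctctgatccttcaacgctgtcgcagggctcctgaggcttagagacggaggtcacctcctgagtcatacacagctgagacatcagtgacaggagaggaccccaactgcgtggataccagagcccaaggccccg

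Of the 3 members with CACGTG, MNT rose against WT, MXD4 had log2 differences of 0.29 and 0.26 that passed no test, and MLX had -0.08 and -0.22. The motif was present for 13 of 29 genes of the ribosome assembly list used below and 13 of 26 of the growth and metabolism list. It was present for 2 of 9 MYC-activated cell cycle genes, 2 of 8 MYC-repressed genes and 3 of 4 MLX and MondoA targets. The other lists had 0 of 6 (other network proteins), 3 of 11 (coactivators), 4 of 11 (stability), 1 of 17 (SIN3 and NCOR) and 1 of 10 (MGA complex). The share of all genes was 8.77%.

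The other proteins of the network and its cofactors were taken from lists, and a gene is named where both controls gave a call of 1 sign, with up to 3 named per sign. Of 5 tested genes of other network proteins, MLXIPL was higher and MYCBP lower against both controls. MLXIPL, which encodes the MLX partner ChREBP, had 38.1 and 26.8 normalised reads in WT cells, 43.4 and 27.5 in GFP cells, and 124 and 110.1 in RBMXL3 cells. Its log2 change was 1.26 ± 0.19 (SE) against GFP (limma adjusted p = 0.0011) and 1.33 ± 0.19 against WT (limma adjusted p = 0.00041), and it held in all alternatives run. MYCBP, a MYC-binding protein, had log2 changes of -0.64 and -0.42, the latter lost without WT replicate 2 or either RBMXL3 library (adjusted p from 0.11 to 0.15), and neither was called with summed TPM. MGA, the large repressor that carries its own MAX-binding domain, had 2973 and 3482 normalised reads in WT cells, 2544 and 2118 in GFP cells, and 2119 and 2139 in RBMXL3 cells. It was lower than WT both in RBMXL3 (-0.59, limma adjusted p = 0.0026) and in GFP (-0.47, limma adjusted p = 0.044), and differed by -0.12 between RBMXL3 and GFP (limma adjusted p = 0.47). Both calls were lost with summed TPM (0.12 and 0.32), and that of GFP also without WT replicate 1 (0.18), WT replicate 2 (0.23) or either RBMXL3 library (0.093 to 0.094). MGA was chosen for mention after its values were seen.

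The counts of these lists stand beside the 6.88% of all tested genes called higher and the 6.86% called lower against both controls. Among 17 coactivators and binding partners of MYC, 0 were higher and 2 lower against both controls: RUVBL1 (log2 changes of -0.49 against GFP and -0.43 against WT) and ACTL6A (-0.47 and -0.32), which belong to chromatin remodelling complexes. Among 19 SIN3 and NCOR corepressor genes, 0 were higher and 3 lower: RBBP7 (-0.50 and -0.50), SAP130 (-0.52 and -0.43) and the deacetylase HDAC2 (-0.38 and -0.43). The median of that list was -0.22 against GFP and -0.12 against WT. Of 13 genes that set MYC protein stability, SET, an inhibitor of the phosphatase PP2A, was lower (-0.37 and -0.45), a count near the 6.86% of all genes. Against WT, 5 of the 13 were called lower and 0 higher, where 15.3% and 14.6% of all genes were. Besides SET these were HUWE1, CIP2A, AURKA and FBXW7, which were not called against GFP. Of 10 genes of the MGA-containing Polycomb complex, TFDP1, a partner of E2F factors, was lower (-0.43 and -0.49), a count also near 6.86%. Others of that list, which the naming rule left out, were called higher against 1 control: RYBP and YAF2 against GFP, and PCGF6 against WT. Its median was 0.13 against GFP and 0.04 against WT. Each of the 7 genes lower against both controls lost at least 1 of its calls without RBMXL3 replicate 1 or RBMXL3 replicate 2. ACTL6A, HDAC2, RUVBL1, SAP130 and SET also lost one without WT replicate 1. ACTL6A and SAP130 lost one without WT replicate 2, and SAP130 without GFP replicate 1. The limma adjusted p of the lost calls ran from 0.0535 (TFDP1) to 0.304 (SET).

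Genes that MYC is known to activate were read from 3 lists, chosen like the members with earlier results of these data known. Their counts stand beside 10.5% of all tested genes called higher and 10.4% lower against GFP, 14.6% and 15.3% against WT, and 1.76% and 1.91% in GFP against WT. Of 36 tested ribosome assembly genes, 1 was called higher and 8 lower against GFP, 3 higher and 9 lower against WT, and 0 higher and 1 lower in GFP against WT. Their median log2 difference was -0.12 against GFP, -0.15 against WT and -0.00 between the controls. WDR12, of the PeBoW complex, had 2878 and 2694 normalised reads in WT cells, 2846 and 2727 in GFP cells, and 1927 and 1945 in RBMXL3 cells. Its log2 changes were -0.52 against each. With summed TPM, WDR12 was at -0.45 against GFP and -0.045 against WT, and neither was called. NOP16 (-0.54 and -0.50) and POLR1B (-0.37 and -0.44), a subunit of RNA polymerase I, were also lower against both controls, as was FBL, which the naming rule left out. Each of these 4 lost a call without RBMXL3 replicate 2 (adjusted p of 0.0568 to 0.228), all but NOP16 also without RBMXL3 replicate 1, FBL and POLR1B without WT replicate 1, and FBL without WT replicate 2. With summed TPM the count called against both controls was 1 in place of 4.

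Of 28 growth and metabolism genes, 4 were called higher and 8 lower against GFP, 5 higher and 6 lower against WT, and 2 higher and 0 lower in GFP against WT. Against both controls 3 were higher and 5 lower. The counts against WT lie near the shares of all genes, 14.6% higher and 15.3% lower, and are no result about the list. LDHA, the lactate dehydrogenase subunit, had 15649.9 and 14431 normalised reads in WT cells, 14938 and 15290.4 in GFP cells, and 8298 and 8645 in RBMXL3 cells, and ODC1, the first enzyme of polyamine synthesis, had 2156 and 2069, 2118 and 2408, and 1264 and 1280.0. Their log2 changes were -0.83 and -0.83 for LDHA and -0.82 and -0.72 for ODC1, against GFP and WT. EIF2S1 (-0.34 and -0.54), a translation initiation factor, was the other named fall, and CTPS1 and SRM, which the naming rule left out, completed the 5. The glutamine transporter SLC1A5 ran the other way, at 1667 and 1670.3 in WT cells, 2506 and 2349 in GFP cells, and 4117 and 3994 in RBMXL3 cells (0.74 against GFP, 1.27 against WT). SLC3A2 (0.31 and 0.66), an amino acid transporter subunit, and TFAM (0.64 and 0.42), a mitochondrial DNA factor, were higher too, and TFAM reversed with summed TPM (-0.023 and -0.19). CTPS1, EIF2S1, SLC3A2, SRM and TFAM each lost a call without RBMXL3 replicate 1 and without RBMXL3 replicate 2 (adjusted p of 0.0546 to 0.293). All of these but SLC3A2 also lost one without WT replicate 1 or WT replicate 2, EIF2S1 without GFP replicate 2, and CTPS1 without GFP replicate 1.

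Of 12 cell cycle genes, 1 was called higher and 2 lower against GFP, and 1 higher and 4 lower against WT. Against GFP these lie near the 10.5% and 10.4% of all genes, and against WT the shares of all genes were 14.6% and 15.3%. CCNE1 (cyclin E1; -0.59 against each control) and CKS1B (-0.59 and -0.40), a partner of cyclin-dependent kinases, were lower against both. The CCNE1 calls held on leaving out any 1 library, and CKS1B lost a call without WT replicate 1 (0.0614), RBMXL3 replicate 1 (0.0532) or RBMXL3 replicate 2 (up to 0.176).

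Of 11 genes that MYC is known to repress, 3 were called higher and 2 lower against GFP, and 4 higher and 2 lower against WT. The shares of all genes were 10.5% and 10.4% against GFP and 14.6% and 15.3% against WT, and the count of lower genes lies near them. CDKN1B, which encodes the cell cycle inhibitor p27, had 779.8 and 815 normalised reads in WT cells, 666 and 945 in GFP cells, and 1678 and 1775 in RBMXL3 cells. Its log2 change was 1.097 ± 0.14 (SE) against GFP (limma adjusted p = 0.00050) and 1.09 ± 0.14 against WT (limma adjusted p = 0.00023), with no overlap between RBMXL3 and the controls. GADD45B (0.74 and 0.74) and GAS1 (0.77 and 0.60), which restrain growth, were also higher, and THBS1 (-0.79 and -1.07), a matrix protein, was lower. GAS1 lost a call without WT replicate 1 (0.105) or either RBMXL3 library (0.0504 to 0.0996), and THBS1 without GFP replicate 1 (0.0564) or RBMXL3 replicate 2 (0.131). The list's median was 0.01 against GFP and 0.41 against WT, beside 0.00 and -0.01 over all genes.

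Of 4 tested targets of MLX and MondoA, 1, TXNIP, was higher against both controls, where 6.88% of all genes were. PFKFB3, which the naming rule left out, was called lower in RBMXL3 against WT, where 15.3% of all genes were. With 4 genes, these counts are no result about the list. In RBMXL3 against GFP, 2 targets had positive and 2 negative log2 differences. TXNIP, which encodes an inhibitor of glucose uptake, had 301 and 308 normalised reads in WT cells, 397 and 477 in GFP cells, and 794 and 795 in RBMXL3 cells. Its log2 change was 0.83 ± 0.12 (SE) against GFP (limma adjusted p = 0.0010) and 1.32 ± 0.12 against WT (limma adjusted p = 3.0e-05). GFP also differed from WT, by 0.48 (limma adjusted p = 0.048), a call lost without either WT library or either RBMXL3 library (0.11 to 0.27).

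Of the 29 genes named in these lists and the marker lists, CDKN1B, GADD45B, LUM, MLXIPL, SLC1A5 and TXNIP kept both calls under all settings run, CCNE1, LDHA and ODC1 lost a call with summed TPM and in no other setting, and 20 lost one on leaving out 1 library.

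**Figure D5:**
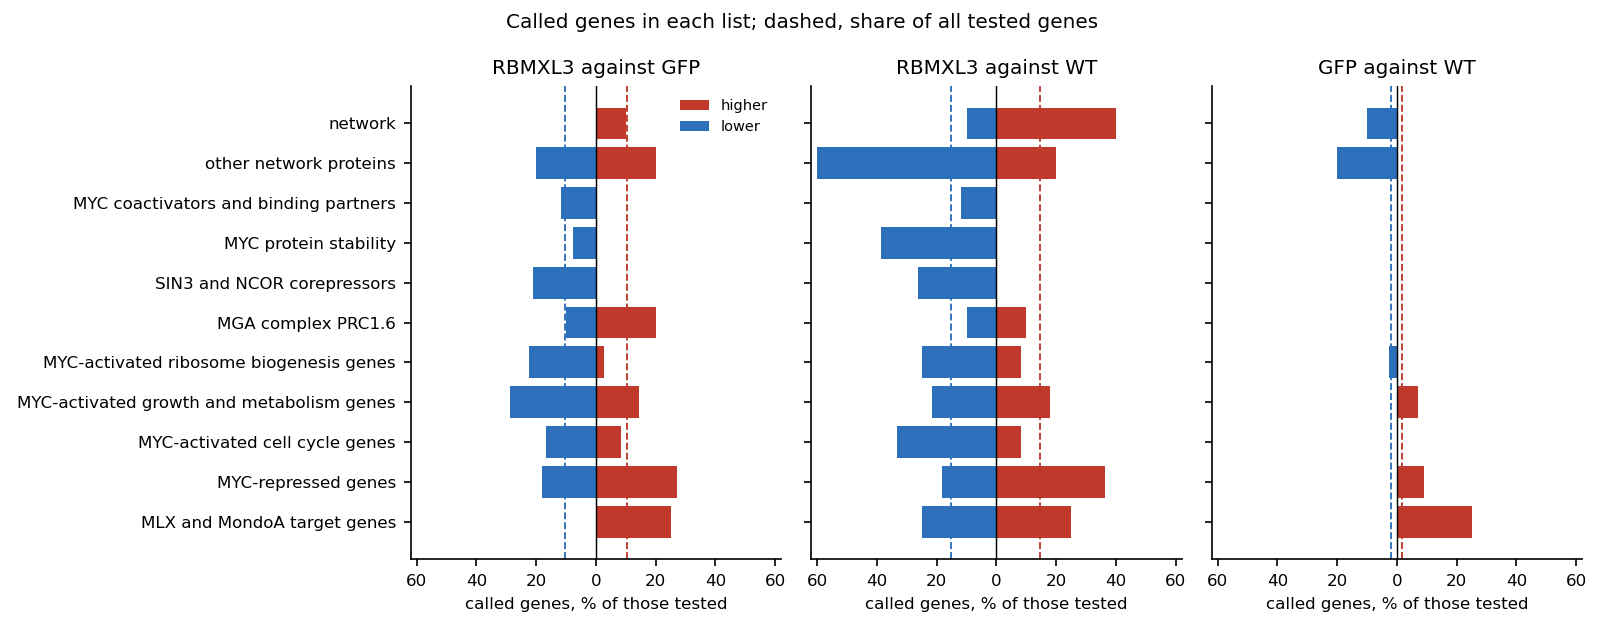
Share of each list's tested genes called higher (right of 0) and lower (left of 0) in the 3 comparisons, in percent, with dashed lines at the share over all tested genes. Of the ribosome assembly genes 8 of 36 are called lower against GFP, and the network row stands at 1 and 4 genes called higher in the RBMXL3 panels.

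Of the 11 seminoma markers, TFCP2L1 was called higher against GFP alone. POU5F1 was called higher and PRDM1 lower against WT alone, and the naming rule left these out. The named 3 were called against both controls. NANOS3, a germ cell RNA regulator, was higher (0.50 and 0.63), where 6.88% of all genes were. KIT (-0.39 and -0.80), the stem cell factor receptor, and LIN28A (-0.37 and -0.33) were lower, where 6.86% of all genes were. With summed TPM, KIT and LIN28A lost both calls, NANOS3 neither, and LIN28A stood at -0.0079 against GFP and -0.087 against WT. All 3 lost a call without RBMXL3 replicate 1 and without RBMXL3 replicate 2 (adjusted p of 0.065 to 0.258), NANOS3 and LIN28A without WT replicate 1, and NANOS3 without WT replicate 2 or GFP replicate 1. KIT was also lower in GFP than in WT (-0.41, limma adjusted p = 0.041), a call lost without either WT library or either RBMXL3 library (0.11 to 0.27). SOX2, the embryonal carcinoma marker, had 15.1 to 31.3 normalised reads in WT cells, 11.7 to 15.7 in GFP cells and 32.2 to 34.2 in RBMXL3 cells. In RBMXL3 cells it was called higher against GFP (0.61, limma adjusted p = 0.048) and was not called against WT (0.30).

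Last, genes with the most similar profile over the 6 libraries were listed for each called member, as the smallest Euclidean distance between centred log2 values among 10743 genes, and this describes likeness only. For MYC they were RABGAP1L, GNAL and SPOCK1, at distances of 0.07, 0.07 and 0.08 on the log2 scale, where the MYC profile itself has a size of 0.60. For MXD3 (size 0.82) they included MTSS1 (0.06) and DLL1 (0.14). For MYCL (size 0.44) they were MACROH2A2, CDC42EP4 and TIMM44, at 0.05 to 0.07. For MNT (size 0.39) they were VPS37C, RAP1GAP and CTBP1, at 0.05 to 0.07. For MXI1 (size 0.54) they were POU5F1 (0.08), the pluripotency factor OCT4, TADA3 (0.10) and CTH (0.11).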

How the data were processed

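Polyadenylated RNA of 6 TCam-2 libraries (3 groups of 2) was analysed from the deposited gene and transcript tables. The submitters' processing notes list Trim Galore 0.6.10, STAR 2.7.11a, DESeq2 and Salmon 1.10.2, and GRCh38; the counter, annotation and strand setting are not given in the sources used here. The deposited gene table, named for CPM, holds a normalised signal. In it, 100% of 145320 nonzero values were whole multiples of 1 step per library, its smallest nonzero value (tolerance 0.01). The values were therefore read as read counts divided by 1 size factor per library, and the multiples as recovered reads. How the authors made them is not stated in the sources used here. The deposited transcript table holds TPM, from Salmon. The number of table columns of no sample was 0.

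Gene values were divided by 23.9, bringing the mean total to that of CPM. Genes that reached 1 in 2 or more libraries were tested on log2(value + 1), which understates changes of low genes, with limma 3.58.1 (R 4.3.3; trend, all libraries in 1 fit, two-sided, Benjamini-Hochberg over all genes). Printed levels are the deposited normalised reads. Transcripts that reached 1 TPM in 2 or more libraries went into diffSplice on log2(TPM + 1). Of the transcripts, 80.0% matched GENCODE 29, with 94.7% to 95.1% of TPM. Coordinates are GENCODE 29 on GRCh38, and sequences come from GENCODE 29 and RefSeq (GRCh38.p14). Depth was 17685680 to 29318007 reads, and floors of 3 reads cover counting error only, since reads carry no molecular identifiers. edgeR 4.0.16 and DESeq2 1.42.0 on the recovered reads and other filters, pseudocounts, normalisations and leave-outs were alternatives. Scripts were tested on simulated data. Named beside the members were, per list, up to 3 genes per direction called against both controls, by the smaller of their absolute log2 changes, and others are marked. The members, lists and rule were chosen with earlier results of these data known. Marker lists served to describe the cells. A gene of similar profile to MXD3 is not reported here.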

Additional observations from a re-analysis of the deposited data

How the results depend on the processing

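Direction and side of the threshold were compared for each member in each comparison. Of 240 values under other settings, 214 kept both, 12 lost a call, 3 gained one and 11 reversed. Of 180 values with 1 library left out, 147 kept both, 18 lost a call, 8 gained one and 7 reversed; a lone library is then assumed to vary like the other groups. The cause of each change was not tested.

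The number of members called was 1 against GFP, 5 against WT and 1 in GFP against WT. Against GFP it was 2 with summed TPM, and 1 to 4 on leaving out 1 library. Against WT it was 3 with no filter, 3 with summed TPM, and 0 to 7 on leaving out 1 library. In GFP against WT it was 0 with no filter, quantile normalisation, summed TPM or the replicate block, and 0 to 1 on leaving out 1 library. Transcript usage of members was called for 1 gene against GFP with TPM of at least 0.1 or mean TPM of at least 5 (MYCL in both), for 1 against WT and 1 in GFP against WT with TPM of at least 0.1 (MAX in both), and for 0 to 1 against GFP on leaving out 1 library (MYC without GFP replicate 2).

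Over all tested genes, same-numbered libraries did not deviate together (correlations of -0.16 for WT with GFP, 0.03 for WT with RBMXL3 and -0.09 for GFP with RBMXL3). No pairing was seen, and the labels record none. Single transcripts can differ: MYCN-202 was listed at 0 TPM in replicate 1 of each group. In replicate 2 it was at 8.54 (WT), 10.9 (GFP) and 1.11 (RBMXL3). With the replicate block, members called against GFP and against WT numbered 1 and 4, with MNT lost against WT (adjusted p = 0.061).

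Counts called against both controls moved as follows. Other network proteins had 2, and 1 with no filter, a mean of at least 5 or summed TPM. Coactivators had 2, and 1 with no filter, 1 with quantile normalisation and 0 with summed TPM. Stability genes had 1, and 0 with no filter, quantile normalisation or the replicate block. SIN3 and NCOR genes had 3, and 1 with no filter, 1 with quantile normalisation and 0 with summed TPM. Genes of the MGA complex had 1, and 0 with summed TPM. Ribosome genes had 4, and 2 with no filter and 1 with summed TPM. Growth genes had 8, and 3 with no filter and 4 with summed TPM. Cell cycle genes had 2, and 4 with quantile normalisation and 1 with summed TPM. Repressed genes had 4, and 2 with no filter or a mean of at least 5. On leaving out 1 library these ranges were 1 to 3, 0 to 5, 0 to 3, 0 to 4, 0 to 3, 0 to 11, 3 to 11, 1 to 5 and 2 to 6 in that order, and 1 to 2 for MLX and MondoA targets.

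Signs reversed with summed TPM for MYC (0.33), MXD1 (0.19) and MLX (0.012) against GFP, MLX against WT (0.13), and in GFP against WT for MYCL (-0.0015), MXD1 (-0.020), MXD4 (-0.21), MXI1 (-0.21) and MNT (-0.095). TFAM reversed with summed TPM against GFP (-0.023) and WT (-0.19). MXD1 against GFP was 0.015 with edgeR and 0.019 with DESeq2. Leaving out 1 library moved MAX (-0.27 to 0.032), MXD4 (-0.042 to 0.098) and MXI1 (-0.0070 to 0.28) in GFP against WT, MLX against WT (-0.16 to 0.0045) and MXD1 against GFP (-0.14 to 0.14) across 0.

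All genes called numbered 2986 against GFP, 4271 against WT and 524 in GFP against WT; these were 950, 2327 and 0 with no filter (30989 tested), and 988, 1638 and 0 with summed TPM. In GFP against WT they were 327 with quantile normalisation and 191 with the replicate block. On leaving out 1 library they ran from 679 to 4304, 1428 to 6155 and 0 to 2770. Genes with a usage call numbered 1069, 1066 and 153; 89, 88 and 6 by shares, 654, 638 and 15 with mean TPM of at least 5, and 1537, 1595 and 325 with TPM of at least 0.1. With a pseudocount of 0.1 the last was 287. Low read numbers limit MXD1 and MXD3, and 2 libraries a group limit all.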

Other observations

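Several genes of the lists changed in both transduced groups against WT; they were chosen for mention after their values were seen. CDKN1A, which encodes the cell cycle inhibitor p21, had 445 and 420 normalised reads in WT cells, 729 and 756 in GFP cells, and 905 and 880 in RBMXL3 cells. Its log2 change was 0.75 in GFP against WT (limma adjusted p = 0.011) and 1.01 in RBMXL3 against WT (limma adjusted p = 7.2e-05). SHMT2, the mitochondrial serine enzyme, was higher in both, by 0.45 (limma adjusted p = 0.035) and 0.71 (limma adjusted p = 0.00042), and UTP20, a ribosome assembly factor, was lower, by -0.49 (limma adjusted p = 0.020) and -0.58 (limma adjusted p = 0.00085). The GFP calls of these 3 genes were lost without WT replicate 1 (0.098 to 0.22) and without WT replicate 2 (0.084 to 0.14), the call of UTP20 against WT in RBMXL3 was lost with summed TPM (0.10), and the GFP calls of SHMT2 and UTP20 were lost also without either RBMXL3 library (0.0606 to 0.098).

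Some listed genes differed sharply in level between the deposited tables. EIF4A1, a translation factor, had 38.8 to 83.9 normalised reads but 976 to 1106 TPM, IMPDH2 had 7.39 to 23.3 normalised reads but 172 to 224 TPM, and NOP2 had 9.54 to 18.5 normalised reads but 42.0 to 71.7 TPM. With those gene table values EIF4A1 entered the list counts, and IMPDH2 and NOP2 fell below the filter. The cause was not tested.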
